A study of Homo sapiens with 26 samples.

Results

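NOXA1 and the other genes of the NOX1 and DUOX branches of the NADPH oxidase family were followed across 26 RNA-seq libraries of human cancer cell lines. NOXA1 was taken up because its level had differed between large and small tetraploid clones in an earlier comparison of these same libraries. The other 7 genes (NOXO1, NOX1, CYBA, DUOX1, DUOX2, DUOXA1 and DUOXA2) were added because they encode its partners and relatives. These 8 genes were found by symbol among the 58735 genes of the deposited table.

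NADPH oxidases are membrane enzymes that pass electrons from NADPH to oxygen. NOX1, a catalytic subunit best known from colon epithelium, makes superoxide when it sits with the membrane subunit encoded by CYBA and is joined by the activator NOXA1, the organizer NOXO1 and a RAC GTPase. DUOX1 and DUOX2 release hydrogen peroxide and need the maturation factors DUOXA1 and DUOXA2 to leave the endoplasmic reticulum; they are known from thyroid, airway and gut epithelium.

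The study derived tetraploid (4N) clones, sorted as small or large by the size of their cells and nuclei, from 3 near-diploid (2N) lines. These were the colorectal cancer lines HCT116 and DLD1 and the breast cancer line CAL51. HCT116 and CAL51 cells received 75 µM blebbistatin, a myosin II inhibitor, for 20 hr, and DLD1 cells received 1.5 µg/mL dihydrocytochalasin, an actin inhibitor, for 20 hr; all had 48 hr of recovery before single cells were cloned. The agent therefore cannot be told apart from the line in any comparison of DLD1 with the other lines. Each line gave 1 parental library and libraries of 2 2N clones. HCT116 gave 3 small and 3 large 4N clones, DLD1 gave 3 small and 4 large 4N clones, and CAL51 gave 1 small and 3 large 4N clones. The labels do not state whether the 2N clones had met these agents, so ploidy and exposure cannot be told apart in any comparison of 4N with 2N clones. Apart from the parental ones each library is 1 clone, so a test across clones measures the spread between clones of one line and not between repeats of one clone.

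Values are fragments per kilobase of gene length, scaled per library (FPKM). Recovered reads in genes ranged from 23.5 to 44.5 M per library (median 32.5 M), and 1 read in a gene of 1 kb was worth 0.0246 to 0.0400 FPKM. EPCAM, an epithelial surface marker, was at 53.4 FPKM or more in every library. The 5 epithelial markers with EPCAM summed to 1030 to 2491 FPKM in HCT116, 1837 to 2581 in DLD1 and 205 to 3899 in CAL51. Of the colon markers, CDX2 was at 38.5 to 81.8 FPKM in DLD1 and 4.28 to 8.02 FPKM in HCT116. VIL1 and LGR5 were at most 0.0278 FPKM in HCT116, and CDX1 was listed at 0 in every HCT116 library. The 6 colon markers summed to 71.4 to 147 FPKM in DLD1, 4.47 to 8.18 in HCT116 and 0.165 to 28.2 in CAL51. They therefore do not set both colorectal lines apart from CAL51. The 4 breast markers summed to 0.372 to 1.13 FPKM in CAL51 and 0.360 to 1.83 FPKM in HCT116; in CAL51 GATA3 was at 0.350 to 1.13 FPKM, ESR1 was at most 0.0217 FPKM and KRT5 and KRT14 were listed at 0 throughout, so the labelled breast origin is not visible in them. The mesenchymal gene VIM was at 6.53 to 36.9 FPKM in CAL51. The 4 mesenchymal markers with VIM summed to 40.4 to 195 FPKM in CAL51, and to at most 3.81 in HCT116 and 0.729 in DLD1. The 5 leukocyte markers summed to at most 1.56 FPKM in any library. The 3 fibroblast markers summed to at most 32.1 FPKM in CAL51, 5.30 in HCT116 and 0.136 in DLD1. The 2 endothelial markers summed to at most 3.29, 0.0485 and 0.0379 FPKM in the same lines. These are bulk libraries, in which fewer cells with a transcript and less of it per cell cannot be told apart, and FPKM is a share of a library and not an amount per cell.

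The sequences just upstream of these genes are shown first, because the genes fell into an expressed and a nearly silent set and because both DUOX genes start head to head with their maturation factors. Promoter windows from RefSeq (GRCh38.p14) were found for 8 of 8 genes. The 250 bases before the starts of NOXA1 (chr9:137423143-137423392, plus strand) and NOX1 (chrX:100874360-100874609, minus strand) follow, each 5′ to 3′ on the strand of its gene. Capitals mark GC boxes (GGGCGG) in NOXA1 and GATA sites (GATAA, or TTATC for the other strand) in NOX1.
NOXA1: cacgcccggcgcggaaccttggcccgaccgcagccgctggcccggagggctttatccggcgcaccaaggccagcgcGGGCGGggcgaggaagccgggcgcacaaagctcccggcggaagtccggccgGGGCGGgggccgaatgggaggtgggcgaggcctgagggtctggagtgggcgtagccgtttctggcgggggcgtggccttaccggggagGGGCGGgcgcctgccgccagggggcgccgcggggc
NOX1: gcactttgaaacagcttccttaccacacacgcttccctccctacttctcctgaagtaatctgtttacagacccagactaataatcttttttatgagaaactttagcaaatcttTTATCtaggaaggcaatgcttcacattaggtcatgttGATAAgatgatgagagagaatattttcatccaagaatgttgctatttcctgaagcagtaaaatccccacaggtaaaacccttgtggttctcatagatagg
The NOXA1 stretch had 78.4% G and C and 34 CpG dinucleotides, and the NOX1 stretch had 38.4% and 1 CpG. Over the 35116 promoter windows of the table the medians were 58% and 11 CpG. On both strands, GGGCGG was found 3 times before NOXA1 and not before NOX1, and it occurred in 42.6% of all windows of that length. GATAA was found 2 times before NOX1 and 1 time before NOXA1 (as ttatc, not capitalised), and it occurred in 20.4% of all windows. No TATAAA (10.7% of windows), TGANTCA (6.57%) or CCAAT (32.0%) was found in either stretch, and no matches overlapped.

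The DUOX genes lie on chromosome 15 in 2 divergent pairs. By the RefSeq starts, DUOX1 and DUOXA1 are separated by 114 bases (chr15:45129880-45129993), and DUOXA2 and DUOX2 by 153 bases (chr15:45114173-45114325). Both spans are shown whole, on the plus strand. Capitals mark GC boxes (here CCGCCC, the reverse complement of GGGCGG) in the first and a TATA box (TATAAA) in the second.
DUOX1 and DUOXA1: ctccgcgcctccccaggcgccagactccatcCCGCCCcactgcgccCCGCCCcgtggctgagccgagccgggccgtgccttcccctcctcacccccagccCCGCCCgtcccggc
DUOXA2 and DUOX2: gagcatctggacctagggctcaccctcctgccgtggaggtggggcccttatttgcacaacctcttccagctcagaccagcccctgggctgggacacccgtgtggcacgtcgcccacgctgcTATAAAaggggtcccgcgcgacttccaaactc
The first span had 80.7% G and C, 13 CpG and 3 GC boxes with no TATAAA. The second had 63.4% G and C, 8 CpG, no GC box and 1 TATAAA on the strand of DUOXA2. A motif match is a description of the letters and not a measured binding site.

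Levels differed by orders of magnitude within the family. CYBA was the most abundant of the 8 genes, at 53.7 ± 20.5 FPKM (SD, n = 26 libraries), and NOXA1 followed at 10.1 ± 8.04 FPKM. Both reached 1 FPKM in 26 of 26 libraries. DUOX1 did so in 9 libraries, the 9 of HCT116, and NOX1, NOXO1, DUOX2, DUOXA1 and DUOXA2 in none. The catalytic subunit NOX1 averaged 0.310 ± 0.150 FPKM, so that the mean of its activator NOXA1 was 70.0 times that of NOX1 in HCT116, 14.1 times in DLD1 and 21.8 times in CAL51. The test across genes took those with 1 FPKM or more in at least 3 libraries, 14835 in all, and 3 of the 8 genes (CYBA, NOXA1 and DUOX1) passed this filter.

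**Figure D1:**
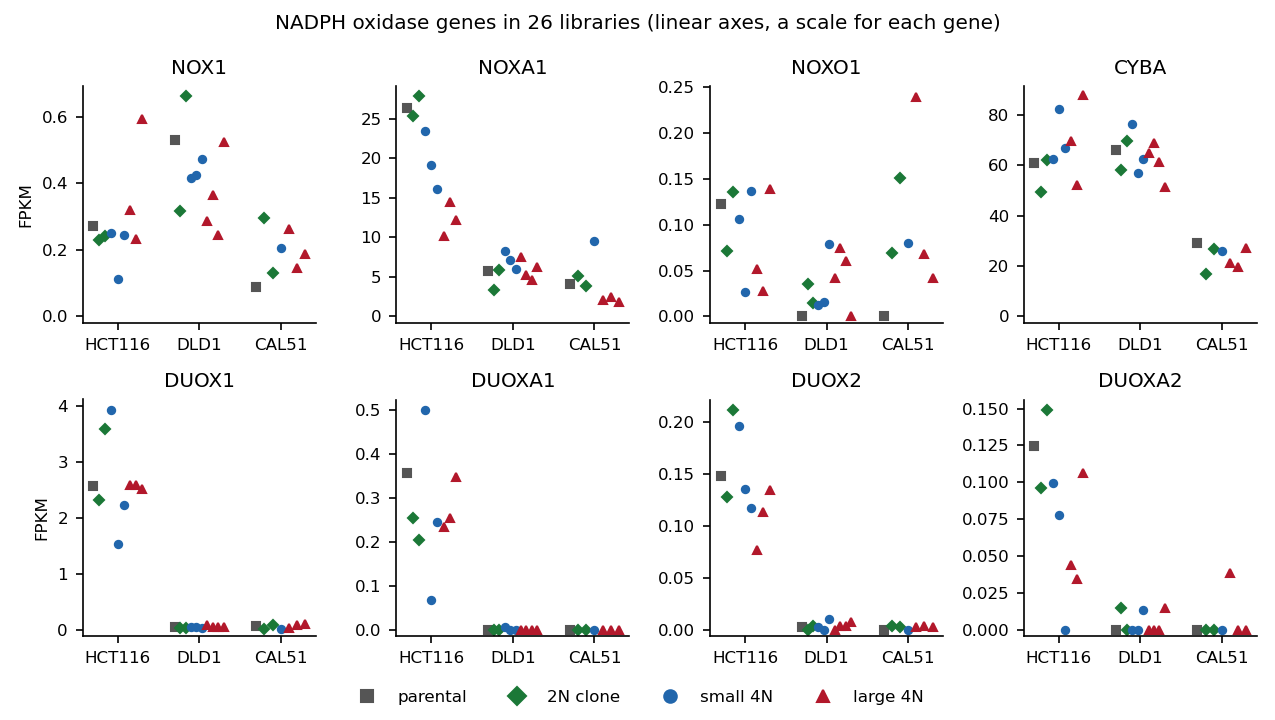
FPKM of the 8 genes (a panel and a linear scale for each gene) in the 26 libraries, by line on the horizontal axis; each point is 1 library, and shape and colour give the class. NOXA1 and DUOX1 are higher in every HCT116 library than in any library of the other lines, and CYBA is lower in every CAL51 library than in any library of the other lines.

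NOXA1 (ENSG00000188747, chromosome 9, 137423350 to 137434406, plus strand) was highest in HCT116. The parental HCT116 library had 26.4 FPKM and the 2N clones 25.4 and 27.9 FPKM. The small 4N clones had 23.4, 19.2 and 16.1 FPKM, and the large 4N clones 10.1, 14.5 and 12.2 FPKM. The 4 classes of HCT116 thus stood in the order 2N, small 4N and large 4N, with no overlap between these 3 levels and the parental library among the 2N clones. How many of all genes showed this order was not counted. Its step from small to large clones is the difference for which NOXA1 was taken up.

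In DLD1 the parental library had 5.77 FPKM and the 2N clones 3.32 and 5.84 FPKM. The small 4N clones had 8.22, 7.19 and 5.93 FPKM, and the large 4N clones 7.48, 5.18, 4.64 and 6.22 FPKM. The 3 small 4N clones lay above all 2N libraries of this line, which 7.81% of the 14835 genes tested also showed, and the large 4N clones overlapped both. The lowest library was a 2N clone.

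In CAL51 the parental library had 4.05 FPKM and the 2N clones 5.09 and 3.79 FPKM. The single small 4N clone had 9.57 FPKM, and the large 4N clones 2.01, 2.46 and 1.79 FPKM. All 3 large clones lay below, and the small clone above, every 2N library of this line. The share of all genes with that order was not counted. Of the 14835 genes tested, 23.2% had every large CAL51 clone below the single small one.

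**Figure D2:**
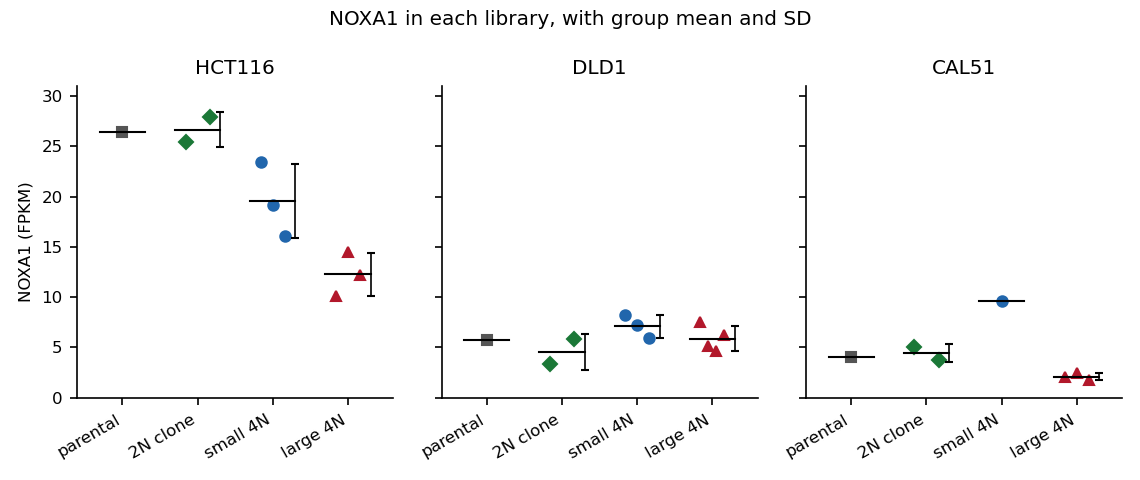
NOXA1 in FPKM (vertical axis, linear) by class in each line; points are libraries, horizontal bars are group means and vertical bars the SD where a group has more than 1 library. In HCT116 the 6 4N clones (10.1 to 23.4 FPKM) lie below the 3 2N libraries (25.4 to 27.9 FPKM), while in DLD1 the small 4N clones (5.93 to 8.22 FPKM) lie above the 2N libraries (3.32 to 5.84 FPKM) and the large 4N clones overlap both.

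The difference between large and small clones was what singled NOXA1 out, so its size is given as a description with no test. On the log2(FPKM + 1) scale, large minus small clones was -0.63 ± 0.20 (SE) in HCT116. It was -0.25 ± 0.18 in DLD1 and -1.78 ± 0.28 in CAL51. The mean over the 3 lines was -0.89 ± 0.13. Without CAL51, where the small class is a single clone, the mean of HCT116 and DLD1 was -0.44. Every large clone was below every small clone in HCT116 and in CAL51, which 7.5% and 23.2% of the 14835 genes also showed. In DLD1 the large and small clones overlapped for NOXA1, and 6.21% of genes had every large clone below every small one. In the same fit 0.398% of genes passed a limma adjusted p of 0.05 for the mean over lines. That share describes the whole table only and lends NOXA1 no support, because this difference picked NOXA1. Of the other 2 genes in the test, CYBA differed little between the size classes in the mean over lines, at -0.11 ± 0.13. DUOX1 was at 0.05 ± 0.11, but its low levels in DLD1 and CAL51 hold differences on this scale near 0. With voom, an alternative fit to recovered reads, the DUOX1 mean was 0.89 ± 0.45. By line it was then 0.10 in HCT116, 0.39 in DLD1 and 2.20 in CAL51, where the small clone had 3 reads.

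The comparison of 4N with 2N clones gives the small and the large class equal weight and asks whether levels differed with ploidy. Of the 3 tested genes, none passed the threshold (limma, Benjamini-Hochberg adjusted p under 0.05 over all 14835 genes) in HCT116, DLD1, CAL51 or their mean, where 0.108%, 0.0337%, 0.108% and 0.00674% of all genes passed. At an unadjusted p under 0.05, 1 gene stood out in HCT116 and 1 in DLD1, NOXA1 both times, and none in CAL51 or in the mean, beside 8.73%, 5.01%, 2.93% and 5.0% of all genes tested. Without the filter on low values, with every gene that had a read, none of the 8 genes passed, where 0.481%, 0.12%, 0.79% and 0.55% of 39108 genes did.

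NOXA1 in HCT116 was lower in 4N than in 2N clones, with a difference of -0.76 ± 0.20 on the log2(FPKM + 1) scale (95% interval -1.17 to -0.34; limma adjusted p = 0.206). All 6 4N clones were below the mean of the 2N clones and below every 2N library with the parental one, which 3.24% of genes also showed. When the parental libraries were pooled with the 2N clones, the difference was -0.75 ± 0.16 and passed the threshold (limma adjusted p = 0.0329); over the 28 alternatives the adjusted p ranged from 0.0329 to 0.954, the highest of them without the second 2N clone, which leaves 1 clone in that group.

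NOXA1 in DLD1 was 0.45 ± 0.19 higher in 4N than in 2N clones (95% interval 0.04 to 0.85; limma adjusted p = 0.922), with 7 of 7 4N clones above the mean of the 2N clones. That mean rested on clones at 3.32 and 5.84 FPKM, and without the lower of them the difference was 0.11. In CAL51 the difference was 0.08 ± 0.22 (95% interval -0.38 to 0.54), with 1 clone above and 3 below the 2N mean. That value averages 2 opposite ones with equal weight, 0.97 ± 0.30 for the small class, which is 1 clone, and -0.81 ± 0.22 for the 3 large clones. The mean over the lines was -0.08 ± 0.12.

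The 4N effect in HCT116 minus that in DLD1 was -1.20 ± 0.28 (95% interval -1.78 to -0.62, unadjusted p = 0.000399 in limma). It did not pass after adjustment (limma adjusted p = 0.348, and 0.106 to 0.829 over the alternatives; 0.00674% of genes passed). The HCT116 effect minus that of CAL51 was -0.84 ± 0.30 (limma adjusted p = 1; 0.027% of genes passed).

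For CYBA, 4N minus 2N clones was 0.32 ± 0.21 in HCT116, -0.01 ± 0.20 in DLD1 and 0.19 ± 0.23 in CAL51, with 95% intervals from -0.12 to 0.75, -0.44 to 0.41 and -0.29 to 0.67. For DUOX1 the differences were -0.16 ± 0.17, 0.03 ± 0.17 and -0.01 ± 0.19. DUOX1 was at most 0.0792 FPKM in DLD1 and 0.102 FPKM in CAL51, so on this scale its differences there had to lie near 0. With voom on recovered reads and no filter, the 3 differences were -0.22 ± 0.28, 0.64 ± 0.67 and -0.59 ± 0.79. None passed (limma adjusted p from 0.713 to 1), and differences of these widths in either direction could not be told from 0 with these clone numbers.

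**Figure D3:**
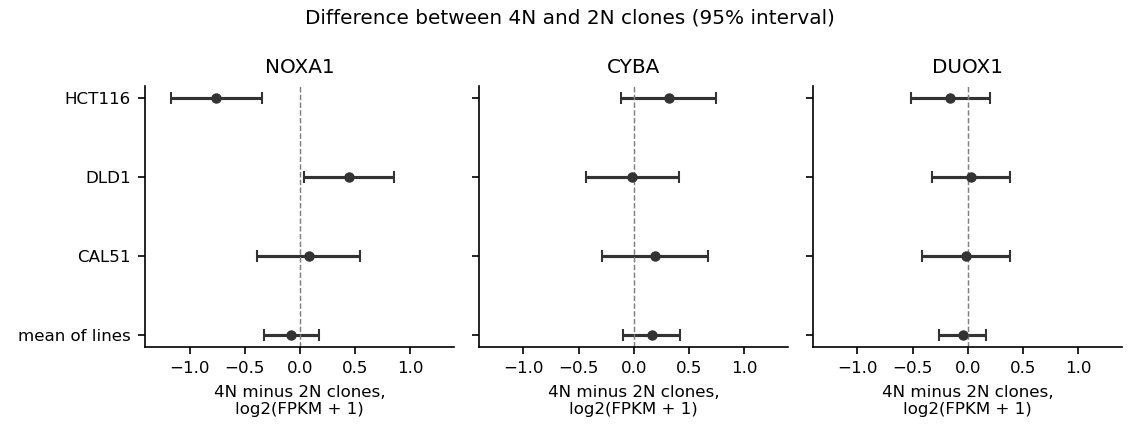
Difference between 4N and 2N clones on the log2(FPKM + 1) scale (horizontal axis) for NOXA1, CYBA and DUOX1 in each line and in their mean; points are estimates from the limma fit and bars their 95% intervals, before adjustment over genes. The NOXA1 interval lies below 0 in HCT116 (-1.17 to -0.34) and above 0 in DLD1 (0.04 to 0.85). Every interval of CYBA and DUOX1 includes 0. DUOX1 was too near 0 FPKM in DLD1 and CAL51 for its intervals there to exclude 0.

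Between lines, NOXA1 averaged 19.5 ± 6.58 FPKM in HCT116 (SD, n = 9), 5.98 ± 1.43 in DLD1 (n = 10) and 4.11 ± 2.69 in CAL51 (n = 7). Its lowest HCT116 library (10.1 FPKM) was above the highest of DLD1 (8.22 FPKM) and of CAL51 (9.57 FPKM), a separation that 17.3% and 17.5% of genes also had. NOXA1 was higher in HCT116 than in DLD1 by 1.66 ± 0.12 on the log2(FPKM + 1) scale (limma adjusted p = 1.79e-09) and than in CAL51 by 1.96 ± 0.14 (limma adjusted p = 4.82e-10). DLD1 was above CAL51 by 0.30 ± 0.13, which missed the threshold (limma adjusted p = 0.0636); it passed with a pseudocount of 0.1 (limma adjusted p = 0.0413). It also passed without DLD1 2N clone 1 (limma adjusted p = 0.0173), DLD1 small clone 3 (0.0488), DLD1 large clone 3 (0.0473) or CAL51 2N clone 1 (0.0460). From 2N clones alone the difference was 0.0093 (limma adjusted p = 0.987, the highest over the alternatives; the lowest was 0.0173).

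These line differences are read against a large background. HCT116 and DLD1 differed in 63.6% of the 14835 genes, HCT116 and CAL51 in 64.6%, and DLD1 and CAL51 in 62.0%. Of the 3 tested oxidase genes 2 (NOXA1 and DUOX1), 3 (CYBA, NOXA1 and DUOX1) and 1 (CYBA) passed in these comparisons, each higher in the line named first. DUOX1 reached 1 FPKM in HCT116 alone and so entered the test through that line. It therefore had to differ in both comparisons with HCT116. Shares of 3 genes near such a background say nothing particular about the family.

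CYBA (ENSG00000051523, chromosome 16, 88643283 to 88651152, minus strand), which encodes the membrane partner shared by several NOX enzymes, split the lines another way. In HCT116 it ranged from 49.3 to 88.0 FPKM with a median of 62.5, in DLD1 from 51.3 to 76.5 with a median of 63.6, and in CAL51 from 16.7 to 29.0 with a median of 26.1. Every library of both colorectal lines was above every CAL51 library, as was the case for 17.5% of genes with HCT116 and 16.5% with DLD1. CYBA was higher in HCT116 than in CAL51 by 1.34 ± 0.14 (limma adjusted p = 1.41e-07) and in DLD1 than in CAL51 by 1.35 ± 0.14 (limma adjusted p = 1.30e-07). HCT116 minus DLD1 was -0.01 ± 0.13, with a 95% interval of -0.28 to 0.26.

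Inside a line, the highest CYBA library was 1.78 times the lowest in HCT116, 1.49 times in DLD1 and 1.74 times in CAL51. The same ratio was 2.76, 2.48 and 5.34 for NOXA1. NOXA1 was picked for a difference between clones of a line, so that choice favoured a wide range. In CAL51 its highest library was the single small clone. These ratios were not worked out over all genes, so neither gene can be called steady or variable by them. The ratio of mean CYBA to mean NOXA1, both in FPKM, was 3.39 in HCT116, 10.6 in DLD1 and 5.78 in CAL51.

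NOX1 (ENSG00000007952, chromosome X, 100843324 to 100874345, minus strand) was detected in every library, with 8 to 53 reads in each. It lay between 0.112 and 0.595 FPKM in HCT116 (median 0.245), between 0.244 and 0.665 in DLD1 (median 0.421) and between 0.0893 and 0.297 in CAL51 (median 0.188). The lines overlapped, with DLD1 highest. Without the filter on low values, 39108 genes were tested, and NOX1 was lower in HCT116 than in DLD1 (-0.19 ± 0.07, limma adjusted p = 0.0368) and higher in DLD1 than in CAL51 (0.30 ± 0.07, limma adjusted p = 0.00358). With voom on recovered reads, where 41.2% and 39.0% of genes passed for these pairs of lines, the adjusted p values were 0.0272 and 0.00116. The mean of NOX1 was highest in DLD1, and that of its activator NOXA1 in HCT116.

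The size classes of HCT116, apart for NOXA1, overlapped for NOX1: the large clones had 0.320, 0.233 and 0.595 FPKM and the small clones 0.251, 0.112 and 0.245 FPKM.

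NOXO1 (ENSG00000196408, chromosome 16, 1978917 to 1984192, minus strand), the organizer that tethers the active complex, had 131 reads in all 26 libraries together and was listed at 0 in 3. Its mean was 0.0907 ± 0.0472 FPKM in HCT116, 0.0334 ± 0.0297 in DLD1 and 0.0929 ± 0.0791 in CAL51, where 1 large clone with 0.240 FPKM held 21 of the 48 reads. Without the filter, HCT116 minus DLD1 missed the threshold (0.10 ± 0.04, limma adjusted p = 0.0602) and passed with voom on recovered reads (adjusted p = 0.00200). NOXO1 shares 4017 bases with TBL3 on the opposite strand, which lay between 10.1 and 23.9 FPKM, and the strand setting of the counting is not given in the sources used here, so these reads cannot be assigned to NOXO1 with certainty.

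DUOX1 (ENSG00000137857, chromosome 15, 45129933 to 45165576, plus strand) was above 1 FPKM in HCT116 alone. The parental HCT116 library had 2.57 FPKM and the 2N clones 2.33 and 3.58 FPKM. The small 4N clones had 3.92, 1.54 and 2.24 FPKM and the large 4N clones 2.60, 2.59 and 2.52 FPKM. The classes overlapped, and the highest and the lowest library were both small clones.

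DLD1 and CAL51 had DUOX1 levels of 0.0306 to 0.0792 FPKM (7 to 23 reads a library) and 0.0118 to 0.102 FPKM (3 to 30 reads). The mean in HCT116, 2.66 ± 0.710 FPKM, was 51.8 times that of DLD1 and 46.5 times that of CAL51. Because only HCT116 carried DUOX1 through the filter, it had to differ there; on the log2(FPKM + 1) scale the differences were 1.78 ± 0.11 and 1.78 ± 0.12. Without the filter the limma adjusted p values were 1.53e-09 and 3.14e-09, in a test where 37.0% and 39.3% of genes passed.

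The other genes of the chromosome 15 cluster showed the same line pattern at lower levels. DUOX2 (ENSG00000140279, 45092650 to 45114344, minus strand) had 27 to 76 reads in each HCT116 library (0.140 ± 0.0414 FPKM), 0 to 3 in DLD1 and 0 to 1 in CAL51. Its mean in HCT116 was 40.9 times that of DLD1 and 60.9 times that of CAL51. DUOX1 was the more abundant of the 2 oxidases in HCT116, with 19.0 times the mean FPKM of DUOX2.

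DUOXA1 (ENSG00000140254, 45117367 to 45129938, minus strand), the maturation factor of DUOX1, had 9 to 73 reads in each HCT116 library (0.273 ± 0.119 FPKM), 1 read in the 10 DLD1 libraries together and none in the 7 CAL51 libraries. The pooled HCT116 level was 77.7 times the level that 3 reads over the whole CAL51 line would give. That figure takes 3 reads as a rough limit for a count of 0. It covers neither the counting error in HCT116 nor the spread between clones, so it is no strict lower bound. Against the 1 read of DLD1 the ratio was 316, with a 95% counting interval of 56.4 to 12537 that covers counting error only.

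DUOXA2 (ENSG00000140274, 45114321 to 45118421, plus strand), the maturation factor of DUOX2, had 0 to 13 reads a library in HCT116 (66 in all), 3 in all of DLD1 and 4 in CAL51, these 4 in 1 large clone. Pooled HCT116 over pooled DLD1 was 21.4, with a 95% counting interval of 7.0 to 106. One HCT116 small clone was listed at 0, so the lines overlapped.

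Without the filter, DUOX2, DUOXA1 and DUOXA2 were higher in HCT116 than in DLD1 (limma adjusted p = 9.93e-08, 1.89e-05 and 0.000106) and than in CAL51 (1.79e-07, 3.54e-05 and 0.000182). Of all 8 genes, 6 passed in HCT116 against DLD1 (5 higher and NOX1 lower), 6 in HCT116 against CAL51 (all higher) and 2 in DLD1 against CAL51 (CYBA and NOX1, both higher). In that test 37.0%, 39.3% and 35.1% of the 39108 genes passed. With voom the counts were 7, 6 and 2, beside 41.2%, 43.5% and 39.0% of genes. The coordinates of the deposited table differ from the RefSeq starts used for the promoter spans. By the deposited coordinates DUOX1 and DUOXA1 overlap by 6 bases and DUOX2 and DUOXA2 by 24. DUOXA1 and DUOXA2 share 1055 bases on opposite strands. How reads in that stretch were counted is not given, so the low counts of the maturation factors are uncertain.

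Within HCT116 the members of the first divergent pair had their extremes in the same clones. The first small clone was highest for both, at 3.92 FPKM for DUOX1 and 0.498 FPKM for DUOXA1, and the second small clone lowest for both, at 1.54 and 0.0686 FPKM. DUOX2 was highest in the second 2N clone (0.211 FPKM), as was DUOXA2 (0.149 FPKM). DUOX2 was lowest in the first large clone (0.0766 FPKM), while DUOXA2 was lowest in the third small clone. Genes on different chromosomes shared their HCT116 extremes too. NOX1 and NOXO1 were both highest in the third large clone and lowest in the second small clone. NOXA1 and DUOX2 were both highest in the second 2N clone and lowest in the first large clone. Shared extremes were thus not particular to the divergent pairs. All this was read off after the values were seen and is given with no test.

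**Figure D4:**
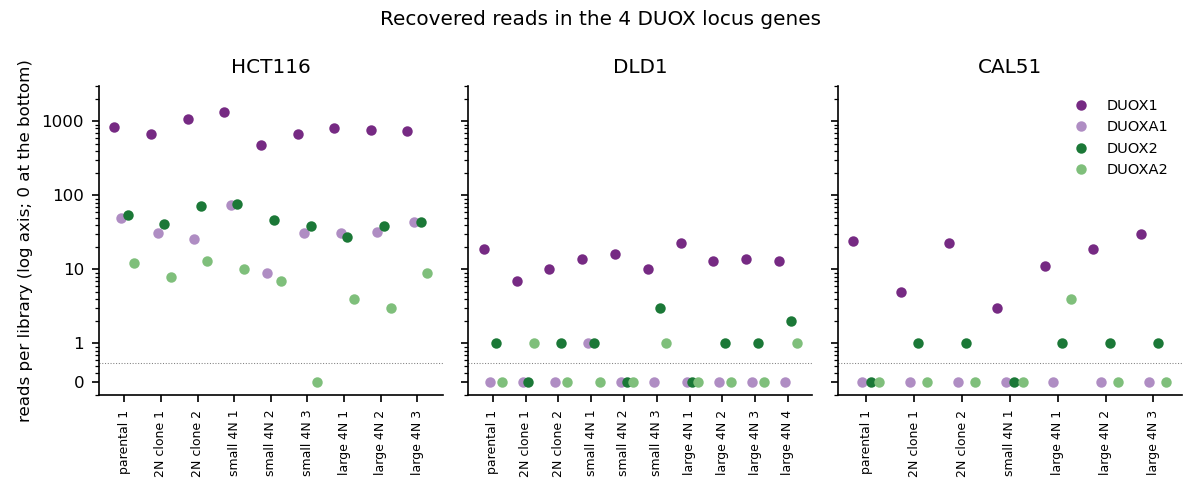
Recovered reads (vertical axis, log scale, with 0 set at the bottom) in DUOX1, DUOXA1, DUOX2 and DUOXA2 for each library, grouped by line; points of one library are set side by side. DUOX1 has 477 to 1357 reads a library in HCT116 and 3 to 30 in the other lines, and DUOXA1 is at 0 in all but 1 library outside HCT116.

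The remaining parts of the pathway came from lists of textbook components. Of the 4 other catalytic subunits (CYBB, NOX3, NOX4 and NOX5) none reached 1 FPKM in any library. CYBB, the phagocyte oxidase, was at 0.0577 to 0.413 FPKM in HCT116 and 0.177 to 0.506 FPKM in DLD1 and was listed at 0 in every CAL51 library. NCF1, the phagocyte counterpart of NOXO1, was at most 0.0740 FPKM, and NCF4, another subunit of the phagocyte oxidase, at most 0.411 FPKM.

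Of the 11 cytosolic partners and assembly factors 8 were tested. RAC2, a GTPase best known from blood cells, was at 18.6 to 34.8 FPKM in HCT116, 3.04 to 7.85 FPKM in DLD1 and at most 0.0557 FPKM in CAL51. RAC3 was at 46.0 to 91.8 FPKM in HCT116, 7.65 to 14.0 in DLD1 and 20.3 to 33.7 in CAL51. RAC1, the GTPase that activates NOX1, was abundant in all, at 55.6 FPKM or more in each library.

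In HCT116 against DLD1, where 63.6% of all genes passed, 6 of these 8 genes were higher and none lower (median 0.53 on the log2 scale, 0.00 over all genes tested). RAC3 was up by 2.53 ± 0.11 (limma adjusted p = 1.12e-12), RAC2 by 2.05 ± 0.16 (4.22e-09) and SH3PXD2B, an organizer of the same family as NOXO1, by 1.14 ± 0.17 (1.61e-05). In HCT116 against CAL51 (64.6% of all genes) 4 were higher and 2 lower (median 0.16), and in DLD1 against CAL51 (62.0%) 1 was higher and 4 lower (median -0.35). In each of these comparisons 1 of the higher genes was RAC2, which never reached 1 FPKM in CAL51 and so entered the test through the other lines alone and had to differ. RAC3 was higher in HCT116 than in CAL51 (1.37 ± 0.12, limma adjusted p = 1.64e-08) and lower in DLD1 than in CAL51 (-1.16 ± 0.12, 1.52e-07). SH3PXD2A, the closest relative of SH3PXD2B, was lower in HCT116 than in CAL51 (-1.73 ± 0.24, limma adjusted p = 4.13e-06) and in DLD1 than in CAL51 (-2.32 ± 0.23, 9.94e-08).

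Of 16 enzymes that remove superoxide and peroxide 14 were tested, and the peroxidase GPX2 stayed under 1 FPKM throughout (at most 0.740). In HCT116 against DLD1, where 63.6% of all genes passed, 1 was higher and 3 lower, against CAL51 (64.6%) 2 were higher and 6 lower, and in DLD1 against CAL51 (62.0%) 3 were higher and 5 lower. Of the lower genes, 1, 3 and 2 never reached 1 FPKM in the line named first and entered the test through other lines, so that these counts lean to one side by the filter. They were GPX3 in the first comparison, SOD3, GPX7 and GPX3 in the second and SOD3 and GPX7 in the third. The extracellular superoxide dismutase SOD3 and the peroxidase GPX7 were at 6.70 to 115 and 16.5 to 37.5 FPKM in CAL51, and at most 0.0894 FPKM in the other lines. GPX3, a secreted peroxidase, was at 0.109 to 0.215 FPKM in HCT116, 0.141 to 5.16 in DLD1 and 4.38 to 15.4 in CAL51, and was lower in DLD1 than in CAL51 (-1.43 ± 0.28, limma adjusted p = 0.000208). Between the colorectal lines the peroxiredoxin PRDX2 was lower in HCT116 (-0.66 ± 0.08, limma adjusted p = 1.16e-06) and GPX8, a peroxidase of the endoplasmic reticulum, was higher there (0.48 ± 0.20, 0.0488).

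Of 6 haem peroxidases PXDN alone was tested, and LPO, MPO and PXDNL were under 1 FPKM in every library. EPX, the eosinophil enzyme, reached 1.15 FPKM in HCT116 and was not tested. PXDN entered through HCT116 alone, so it had to differ, and only its levels are given. It was at 0.00262 FPKM or more in HCT116 (median 4.20) and 0.0533 to 0.211 FPKM in DLD1, and was listed at 0 in every CAL51 library.

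Of 5 aquaporins that can pass hydrogen peroxide AQP8 and AQP9 were under 1 FPKM in every library and 3 were tested. All 3 passed in HCT116 against CAL51 (1 higher, 2 lower) and in DLD1 against CAL51 (1 higher, 2 lower), and 2 in HCT116 against DLD1 (1 higher, 1 lower), beside the same 64.6%, 62.0% and 63.6% of all genes. AQP3 was at 1.22 to 4.46 FPKM in HCT116, 0.288 to 9.05 in DLD1 and 0.0383 to 0.179 in CAL51, and was higher in HCT116 than in DLD1 by 0.83 ± 0.30 (limma adjusted p = 0.0232). AQP1 was at 0.107 to 33.4 FPKM in CAL51 and at most 0.536 in HCT116 and 0.0350 in DLD1. AQP11 was at 0.895 to 1.79 FPKM in CAL51, 0.585 to 0.961 in DLD1 and 0.158 to 0.343 in HCT116, and was lower in HCT116 than in DLD1 (-0.47 ± 0.08, limma adjusted p = 5.63e-05). AQP1 and AQP11 thus reached 1 FPKM in CAL51 alone and AQP3 never did so there, so the filter itself favoured the direction seen against CAL51. In the comparison of 4N with 2N clones no gene of these lists passed, in any line, in the mean or in a difference between lines.

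Genes whose values moved most like NOXA1 were ranked by Pearson's r of log2(FPKM + 1) over the 26 libraries after the mean of each line was taken out, among 12127 genes. NCOA6, a nuclear receptor coactivator, came first with r = 0.86, then MIER1 with 0.83, CRYL1 with 0.81, TMEM170A with 0.77 and TNRC18 with 0.77. Taken line by line (HCT116, DLD1, CAL51), r of NCOA6 was 0.84, 0.80 and 0.92. That of MIER1 was 0.89, 0.28 and 0.95. All points share their libraries and classes, and the ranking uses the size contrast that picked NOXA1, so these are descriptions with no test. The other oxidase genes were left out before the ranking, so it does not show how closely they followed NOXA1.

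**Figure D5:**
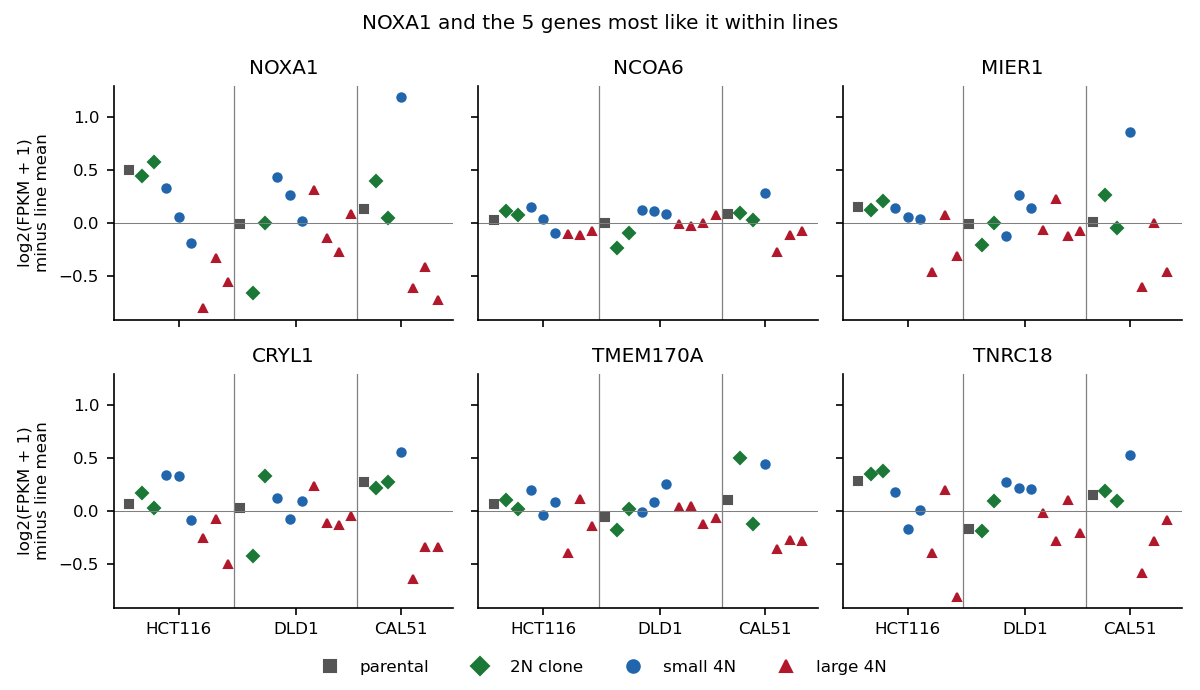
NOXA1 and the 5 genes with the highest r to it, as log2(FPKM + 1) minus the mean of the line (vertical axis) in each library (horizontal axis, grouped by line); shape and colour give the class. In each of the 6 panels the small CAL51 clone lies above the line mean and above all 3 large clones, and the spread of NCOA6 is narrower than that of NOXA1.

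For CYBA the most alike genes were RFLNB (r = 0.71), NFATC1 (0.69) and MFSD14B (0.65). RFLNB and NFATC1 had medians of 0.00372 and 0.0202 FPKM in DLD1, where r was 0.27 and 0.46, so their likeness came from HCT116 (0.77 and 0.76) and CAL51 (0.79 and 0.80). The genes most like DUOX1 were SNX22 (0.81), MRAP2 (0.76) and RTBDN (0.73). For DUOX1 the likeness came from HCT116, where r was 0.90, 0.81 and 0.75; in DLD1 and CAL51 it rested on a few reads.

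The tested genes within 500 kb of NOXA1 gave a view of the surrounding stretch of chromosome 9. Over 39 such genes the median difference between 4N and 2N clones was 0.05 in HCT116 (lowest -0.68, highest 0.92), and NOXA1 at -0.76 was below all of them. In DLD1 the median was 0.01, with 36 of 39 genes below NOXA1, and in CAL51 it was 0.05, with 20 below. The median of large minus small clones over the same genes was 0.11 in HCT116, -0.09 in DLD1 and -0.19 in CAL51. Near DUOX1, 9 tested genes had a median 4N minus 2N difference of -0.21 in HCT116 (lowest -0.56, highest 0.19), beside -0.16 for DUOX1. Copy number was not measured here, and its part in these values was not tested.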

How the data were processed

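The authors deposited 1 table of FPKM for 58735 genes in 26 libraries. Per the submitters' processing notes, the tools were fastp, HISAT2 2.0.5 (genome GRCh38), featureCounts 1.5.0-p3 and DESeq2; per the labels' protocols the libraries were poly-A selected and directional. Whether the counting used strand is not given in the sources used here. FPKM values were turned back into reads, whole to within 0.01 for 100% of values, for depth and for one alternative (voom).

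Genes reaching 1 FPKM in 3 or more libraries were fitted as log2(FPKM + 1) with limma 3.58.1 in R 4.3.3, with a mean for each of 12 groups (residual degrees of freedom 14), the trend option and Benjamini-Hochberg adjustment over 14835 genes. Contrasts weight small and large clones, and classes, equally. A fold on this scale understates changes of low genes. Counting intervals are exact 95% Poisson or conditional binomial intervals and cover counting error only. Fits were checked on simulated data.

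The 8 genes, the lists and the tests were chosen with earlier results of these data known. Named genes are the 8 members, the 5 genes most like NOXA1 and 3 most like CYBA and DUOX1, and from each list the 3 largest line differences past the threshold with those under 1 FPKM, of which some are not reported here; a few levels (RAC1, EPCAM and other markers) are added as context. SOD2 has 2 rows in the table and was left out of its list. Alternatives were a pseudocount of 0.1, no filter, voom, a replicate block, parental libraries pooled with 2N clones, lines from 2N clones only and leaving out each clone.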

Additional observations from a re-analysis of the deposited data

Results flagged for a closer look

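DUOXA2 in the large 4N clones of DLD1 was marked because 1 sample stood far from the others: large clone 4 had 0.0149 FPKM, which is 1 read, and the other 3 clones had 0. These 4 clones were the one group large enough for this check, and 7 of the 8 genes varied in it. With 3 values of 0 and 1 above 0 the check always marks a gene. Its usual rate of about 1 in 20 groups by chance does not hold here.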

How the results depend on the processing

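No gene of the family passed for 4N against 2N clones in any line under any alternative but 1: with parental libraries pooled with 2N clones, 1 gene (NOXA1) passed in HCT116. Without the filter, more genes were tested and the passing genes rose from 2 to 6 (7 with voom) for HCT116 against DLD1, from 3 to 6 (6 with voom) for HCT116 against CAL51, and from 1 to 2 (2 with voom) for DLD1 against CAL51. The last count was also 2 with a pseudocount of 0.1, and 1 to 2 when each clone was left out; the cause was not tested. The NOXA1 mean of large minus small clones was -0.44 from HCT116 and DLD1 only, and its CAL51 value was -2.15 with a pseudocount of 0.1 and -2.21 with voom.

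The labels do not say whether clones with the same number in a line share a source. Of the same-numbered pairs, 6 of 16 correlated over 0.1 (-0.06 to 0.21), beside 2 of 37 others. Pairs within a line are not independent of each other, and the cause was not tested. The replicate block, which leaves out the parental libraries, changed no count of passing genes. Under the block NOXA1 in HCT116 was -0.69, and the sign turned for CYBA, 4N against 2N clones in DLD1 (0.0625) and HCT116 against DLD1 (0.12).

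DUOX1 in DLD1 against CAL51 turned to 0.00781 with a pseudocount of 0.1 and 0.27 with voom (0.27 without the filter). Leaving out each clone turned the sign only of differences that did not pass: for 4N against 2N clones, CYBA in DLD1 (-0.14 to 0.12) and CAL51 (-0.13 to 0.51), DUOX1 in HCT116 (-0.39 to 0.0730), CAL51 (-0.0506 to 0.0268) and the mean (-0.12 to 0.0300), and NOXA1 in CAL51 (-0.0944 to 0.25) and the mean (-0.19 to 0.0337); between lines, CYBA in HCT116 against DLD1 (-0.0563 to 0.0371) and DUOX1 in DLD1 against CAL51 (-0.0122 to 0.00719). The single small CAL51 clone could not be left out. Depth limits the 5 untested genes, where 1 read moves a value.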
